A study of Mus musculus with 8 samples.

Results

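The 47 genes described here drive DNA replication and cell division, and they were chosen by name as a set of cell cycle and proliferation genes. All 47 were found among the 25006 Ensembl gene identifiers of the count tables, and all 47 were among the 15310 genes that passed the filter on low counts. They fall into 21 genes of S phase and the transition into it and 26 genes of the G2 phase and mitosis. The tumors came from 4T1, a mammary tumor line of Balb/c origin often used to model triple-negative breast cancer, placed in the mammary fat pad and harvested within 20 days. Hosts were NSG mice, which lack functional T, B and NK cells, or Balb/c mice, which have an intact immune system. Wild-type and knockout tumors were taken from each host, which gave 4 groups of 2 libraries. The wild-type tumors carried parental 4T1 cells or 4T1 cells that stably express vCas9, and the knockout tumors carried CRISPR/Cas9 clone 54 or clone 69 lacking CD95, the death receptor encoded by Fas. All 4 lines grew in either host, the knockout lines are single clones, and whether a library held 1 tumor or several is not given in the sources used here. Replicates within a group are different lines, with 1 library per line and host. A p-value therefore rests on a spread in which line, tumor and library cannot be told apart.

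Before DNA can be copied, ORC, Cdc6 and Cdt1 load the Mcm2-7 helicase onto origins, and at the onset of S phase E2F transcription factors raise the genes of the helicase, of the replication fork and of nucleotide synthesis. Genes of G2 and mitosis are switched on later, by the MuvB complex with B-Myb and FoxM1, and are repressed in resting cells through the DREAM complex at promoter elements called CHR. In tumors, the RNA level of these genes is widely used as a readout of how many cells are cycling.

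Library totals ranged from 8.68 to 19.7 M counts (M stands for mega), and no member had fewer than 24 counts in any library. Levels are given in CPM, counts scaled to a common library total with TMM factors. Fas RNA was still read in every library. In the order parental and vCas9, it was at 33.9 and 22.6 CPM in NSG wild type and 51.6 and 46.9 CPM in Balb/c wild type, and in the order clone 54 and clone 69 at 29.5 and 12.9 CPM in NSG knockout and 27.1 and 33.7 CPM in Balb/c knockout. The knockout difference in Fas passed no threshold, at -0.42 on the log2 scale (SE 0.37, adjusted p = 0.628 by edgeR) in NSG and -0.70 (SE 0.36, adjusted p = 0.225) in Balb/c. The NSG value turned to 0.06 without clone 69 in NSG and kept its sign without any other library. The knockout status therefore rests on the labels. The summed level of 14 lymphocyte markers was 5.99 to 10.7 CPM in the NSG libraries, where up to 5 of the 14 were at 0 and Ncr1 was at 0 in each library, and in those from Balb/c 400 to 531 CPM. The summed level of 12 epithelial markers, which the tumor cells themselves express, was 1240 to 1680 CPM in NSG wild type, 2480 to 3760 in NSG knockout and 877 to 2240 in Balb/c wild type. In Balb/c knockout it was 786 CPM with clone 54 and 4460 CPM with clone 69. Macrophage markers summed to 1940 to 3700 CPM in NSG libraries, 2500 to 2790 in Balb/c wild type and 4770 to 12000 in Balb/c knockout, and fibroblast markers to 17500 to 33600 CPM in NSG against 3980 to 12900 in Balb/c. The 8 neutrophil markers summed to 1570 to 2230 CPM in NSG wild type and 6260 to 7850 in Balb/c wild type, and to 2870 to 3920 CPM in NSG knockout and 877 to 2880 in Balb/c knockout. Endothelial markers summed to 184 to 526 CPM and adipocyte markers to 52.1 to 288 CPM, both lowest with the parental line in Balb/c and higher in Balb/c knockout than in Balb/c wild type. Fabp4 made up most of the adipocyte sum, with means of 57.8 CPM in Balb/c wild type and 230.5 CPM in Balb/c knockout. Adipoq, Plin1, Lep and Cidec had means of at most 0.921 CPM in these groups. At an edgeR adjusted p under 0.05, 15.3% of all genes were higher and 16.2% lower in Balb/c than in NSG in wild type, and 15.7% and 15.4% in knockout. In wild type 14 of 14 lymphocyte, 3 of 8 neutrophil and 1 of 10 macrophage markers were called higher, and 2 macrophage and 1 of 8 fibroblast markers lower. In knockout 13 lymphocyte, 8 macrophage and 1 neutrophil markers were called higher, and 7 fibroblast and 2 neutrophil markers lower. Of 7 endothelial markers 2 were lower in wild type and 1 was higher in knockout, of 6 adipocyte markers 2 were lower and 1 higher in wild type and 4 lower in knockout, and of 12 epithelial markers 1 was lower in knockout. In a bulk library, fewer cells of a type and less RNA per cell cannot be told apart, and the part of these cell types in the results below was not tested.

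The main comparison asked how the same lines differ between Balb/c hosts, which are immunocompetent, and NSG hosts, which are immunodeficient. These hosts are also different mouse strains, so immune status and strain cannot be told apart. In wild-type tumors 36 of the 47 cell cycle genes were lower in Balb/c than in NSG at an edgeR quasi-likelihood adjusted p under 0.05 and none was higher (also 0 at an unadjusted p under 0.05 and 0 with DESeq2), where 16.2% of all tested genes were lower and 15.3% higher. The median over the 47 was a log2 fold change of -1.24, or 2.36-fold lower, while the median over all genes was -0.08. In knockout tumors 32 of 47 were lower, against 15.4% of all genes, and only Pcna was higher, against 15.7%, but scaling to the epithelial markers left 14 of the 47 negative and none called. The median over the 47 was -1.29, or 2.45-fold lower, against 0.02 over all genes, and turned to 0.27 on the epithelial scale. That scale is imprecise: the SE of a member's log2 fold change in knockout was up to 1.21 on it and up to 0.407 with TMM, and of the members whose sign turned, each but Cdt1 and E2f1 lay less than 1 SE from 0. The log2 fold change was negative for 46 members in wild type and 45 in knockout, as for 53.4% and 48.8% of all genes. The 2 libraries of each group did not overlap between hosts for 46 genes lower in Balb/c in wild type and for 42 in knockout, where 41% and 31.9% of all genes did the same. The summed level of all 47 genes was 2624 and 2357 CPM in the NSG wild-type libraries, 1918 and 2887 CPM in NSG knockout, 1274 and 1235 CPM in Balb/c wild type and 1358 and 999 CPM in Balb/c knockout. All 4 NSG sums lay above all 4 Balb/c sums.

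**Figure D1:**
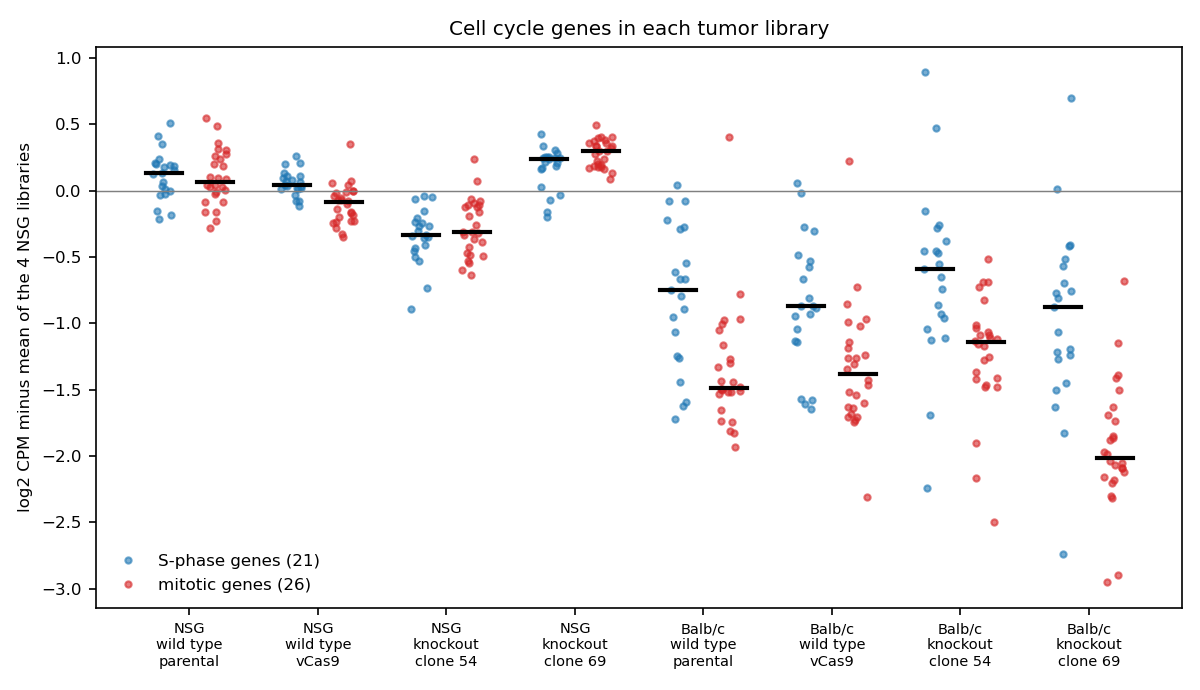
Each point is 1 of the 47 cell cycle genes in 1 tumor library, as log2 CPM minus that gene's mean over the 4 NSG libraries on the vertical axis, with S-phase genes in blue, mitotic genes in red and the median of each as a black bar. The medians lie below 0 in the 4 Balb/c libraries and further below for the mitotic genes, on the TMM scale; scaled to epithelial markers, the knockout median over the 47 genes turned to 0.27.

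The calls in wild type depended on all 4 wild-type libraries. Left out 1 at a time, the NSG parental, NSG vCas9, Balb/c parental and Balb/c vCas9 libraries left 1, 10, 3 and 4 members called lower, where 2.35%, 3.8%, 2.39% and 2.53% of all genes were, with a median between -1.35 and -1.14. Without the NSG parental library the share of the members was thus no larger than that of all genes. In knockout 16 members were called lower without clone 69 in NSG, against 8.2% of all genes, and 17 when only the 4 knockout libraries were fitted, against 8.77%, with Pcna higher in both. With the cell line as a block, 15 members were lower in wild type, where 5.73% of all genes were, and 21 were lower and Pcna higher in knockout, where 9.56% of all genes were lower. The 15 were Mcm6, Gins2, Rrm2, Tyms, E2f1, E2f8, Mybl2, Cdk1, Cdc25c, Bub1b, Cdc20, Cenpe, Cenpf, Kif20a and Kif23. Total-count scaling moved the median over all genes to -0.24 in wild type and -0.17 in knockout, with 36.5% and 37.3% of the called genes higher in Balb/c, where TMM had 2344 of 4825 and 2403 of 4757. On the epithelial scale no member passed in wild type either, at a median of -1.60, and the median over all genes was -0.41 in wild type and 1.42 in knockout, with 84.4% of 154 and 90.5% of 441 called genes higher. Within each line the direction was shared by nearly all members: 46 of 47 were lower in Balb/c for the parental line, 47 for vCas9, 43 for clone 54 and 46 for clone 69, where 49.5% to 53.3% of all genes were lower. The median difference was -1.30 for the parental line, -1.08 for vCas9, -0.63 for clone 54 and -1.91 for clone 69 in log2 CPM.

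Mitotic genes differed further between hosts than S-phase genes. In wild type 24 of 26 mitotic genes were called lower with a median log2 fold change of -1.48, and 12 of 21 S-phase genes with a median of -0.90, against 16.2% of all genes. With the cell line as a block, 8 mitotic and 7 S-phase genes were called lower in wild type, where 5.73% of all genes were. The larger share of mitotic calls was thus not seen there, with medians of -1.48 and -0.89. In knockout 23 of 26 mitotic genes were called lower with a median of -1.52 and 9 of 21 S-phase genes with a median of -0.78, against 15.4% of all genes. These medians turned to 0.07 and 0.81 when scaled to the epithelial markers. The block called 16 mitotic genes and 6 S-phase genes in knockout, Pcna included, where 9.56% of all genes were lower and 9.24% higher. The mitotic median was thus lower than the S-phase median by 0.58 in wild type and 0.73 in knockout. With the S-phase list narrowed to Mcm2 to Mcm7, Cdc45 and Rrm2, it was 0.56 in wild type and 0.57 in knockout. Within a library, the mean log2 CPM of the S-phase genes minus that of the mitotic genes was -0.43 and -0.28 in NSG wild type, -0.50 and -0.55 in NSG knockout, 0.11 and 0.04 in Balb/c wild type, and 0.14 and 0.52 in Balb/c knockout. The NSG and Balb/c values did not overlap, and clone 69 in Balb/c stood highest. A scaling factor cancels in this difference. Genes of the 2 lists share regulators and libraries, so they are not replicates, and the difference between the lists was given no test.

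**Figure D2:**
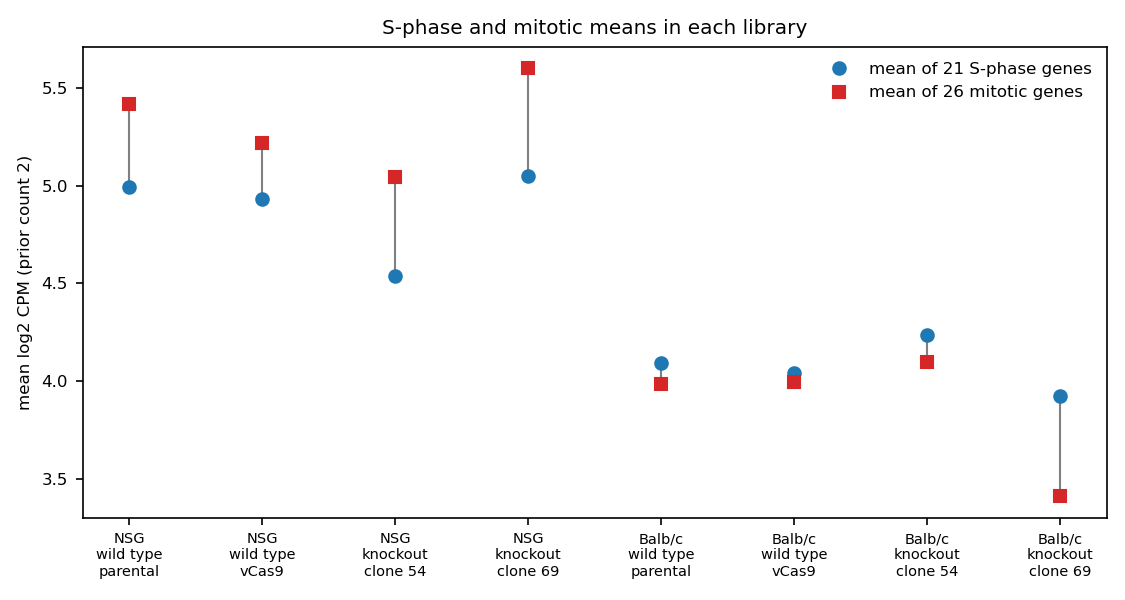
Circles show the mean log2 CPM of 21 S-phase genes and squares that of 26 mitotic genes in each of the 8 tumor libraries (vertical axis, log2 CPM with a prior count of 2). The squares lie above the circles in the 4 NSG libraries and below them in the 4 Balb/c libraries.

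Promoter sequences are shown for members of each list, because most members moved together and E2F and CHR elements are known from promoters of S-phase and of mitotic genes. RefSeq windows of the GRCm38.p6 build, 250 bases before to 50 bases after a transcription start, were matched for 18 of 21 S-phase genes (19 windows) and 20 of 26 mitotic genes (21 windows). The letters TTTGGCGC, TTTCCCGC, TTTGCCGC or TTTCGCGC, forms of the E2F site, stood on either strand in 31.6% of S-phase windows, 4.76% of mitotic windows and 2.26% of all 32851 windows. The S-phase genes with such a match were Mcm3, Mcm5, Mcm6, Mcm7, Cdc6 and Cdt1. Among mitotic genes only Cdk1 had one, TTTCGCGC, which is left in small letters in the sequence below. The letters TTTGAA or TTCGAA, forms of the CHR, stood on either strand in 21.1% of S-phase windows, 81% of mitotic windows and 19.2% of all windows. CCAAT on either strand, the site of NF-Y, stood in 63.2%, 90.5% and 37.4%. These are matches of letters and not measured binding. Below, 150 bases before to 20 bases after the start are printed 5′ to 3′ on the gene's strand. Capitals mark E2F letters in the helicase gene Mcm6 (chr1:128359686-128359855, minus strand, where 2 of the 3 matches overlap on opposite strands), CHR letters in Cdk1 (chr10:69352893-69353062, minus strand) and Cenpf (chr1:189688067-189688236, minus strand), and ATTGG, which is CCAAT on the other strand, in Pcna (chr2:132253161-132253330, minus strand).
Mcm6: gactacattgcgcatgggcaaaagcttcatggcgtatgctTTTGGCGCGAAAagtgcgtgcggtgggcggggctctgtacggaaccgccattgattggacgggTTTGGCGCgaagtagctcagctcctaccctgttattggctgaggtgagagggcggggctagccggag
Cdk1: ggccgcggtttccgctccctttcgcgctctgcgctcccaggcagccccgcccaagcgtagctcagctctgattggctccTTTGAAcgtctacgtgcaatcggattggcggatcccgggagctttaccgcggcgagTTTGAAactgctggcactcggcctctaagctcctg
Cenpf: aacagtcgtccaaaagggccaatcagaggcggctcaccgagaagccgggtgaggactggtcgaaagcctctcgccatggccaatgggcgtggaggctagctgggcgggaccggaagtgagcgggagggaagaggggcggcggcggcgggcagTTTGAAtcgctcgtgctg
Pcna: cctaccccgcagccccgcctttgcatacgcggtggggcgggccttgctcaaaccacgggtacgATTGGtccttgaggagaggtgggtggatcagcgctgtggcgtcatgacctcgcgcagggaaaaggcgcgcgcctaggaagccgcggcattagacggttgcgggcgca

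Of the helicase genes Mcm2 to Mcm7, which unwind DNA ahead of the fork, 5 of 6 were lower in Balb/c wild type at the threshold, against 16.2% of all genes. Mcm4 was not (-0.35, edgeR adjusted p = 0.16). Mcm3 and Mcm7 lost the call in wild type with the block, at adjusted p of 0.105 and 0.0584. In knockout 3 of 6 were called lower, namely Mcm5, Mcm6 and Mcm7, against 15.4% of all genes, though all 6 turned positive when scaled to the epithelial markers. Mcm2 was at 56.4 and 50.5 CPM in NSG wild type, 36.9 and 58.97 in NSG knockout, 34.1 and 27.3 in Balb/c wild type and 35.97 and 27.1 in Balb/c knockout. In NSG tumors Mcm5 was read at 70.9 and 58.8 CPM in wild type and 48.5 and 74.2 CPM in knockout, and in Balb/c tumors at 35.8 and 33.8 CPM and 37.1 and 27.1 CPM. The NSG clone 54 library was the lowest of the NSG libraries for both genes, and all Balb/c values lay below all NSG values. Mcm6 (ENSMUSG00000026355, chromosome 1, 128331590 to 128359664 in GRCm38) had the smallest adjusted p of the 6 in wild type. For Mcm6 the CPM values were 119 and 93.3 in NSG wild type against 48.2 and 46.02 in Balb/c wild type, and 82.1 and 115 in NSG knockout against 53.1 and 48.4 in Balb/c knockout. It differed by -1.17 on the log2 scale (SE 0.21, edgeR adjusted p = 0.00737) in wild type and -0.96 (SE 0.21, adjusted p = 0.0114) in knockout, and it was called with the block in both. Mcm2 gave -0.80 (SE 0.26, adjusted p = 0.0486, and 0.109 with the block) in wild type and -0.60 (SE 0.26, adjusted p = 0.113) in knockout. Mcm5 gave -0.90 (SE 0.25, adjusted p = 0.0296, and 0.0887 with the block) and -0.93 (SE 0.25, adjusted p = 0.0249, and 0.085 with the block).

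The loading factors Cdc6 and Cdt1 passed in neither genotype. In NSG tumors Cdc6 was read at 9.21 and 9.94 CPM in wild type and 10.2 and 12.9 CPM in knockout, and in Balb/c tumors at 9.003 and 6.58 CPM and 7.14 and 6.20 CPM. The Balb/c values were below the NSG values in both genotypes, and differed by -0.30 (SE 0.26, edgeR adjusted p = 0.401) in wild type and -0.79 (SE 0.26, adjusted p = 0.0543) in knockout. Cdt1 had the smallest negative difference in wild type, -0.12 (SE 0.17, adjusted p = 0.609), which turned to 0.11 after a trend in GC content and length was removed. Cdc45 and Gins2 are parts of the active helicase with Mcm2-7. Cdc45 was at 14.8 and 15.7 CPM in NSG wild type, 12.2 and 16.4 in NSG knockout, 9.60 and 8.38 in Balb/c wild type and 7.14 and 4.74 in Balb/c knockout. The wild-type libraries held Gins2 at 10.5 and 10.1 CPM in NSG and 4.08 and 3.26 CPM in Balb/c, and the knockout libraries at 8.67 and 9.45 CPM and 6.40 and 4.08 CPM. Both were lower in Balb/c in both genotypes without overlap. Cdc45 was called in knockout (-1.26, SE 0.28, adjusted p = 0.0121, and 0.0555 with the block), where it turned to 0.28 when scaled to the epithelial markers, and not in wild type (-0.76, SE 0.27, adjusted p = 0.0651). Gins2 was called in wild type (-1.49, SE 0.30, adjusted p = 0.011) and not in knockout (-0.78, SE 0.30, adjusted p = 0.0794). Neither difference between the genotypes passed the interaction test.

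Pcna (ENSMUSG00000027342, chromosome 2, 132249162 to 132253314 in GRCm38) encodes the sliding clamp that holds DNA polymerases on their template and also serves in DNA repair. Pcna was at 152 and 109 CPM in NSG wild type, 83.8 and 92.8 in NSG knockout, 101 and 105 in Balb/c wild type and 198 and 172 in Balb/c knockout. The 2 Balb/c knockout libraries were the highest of all 8 and the 2 NSG knockout libraries the lowest. Pcna was higher in Balb/c than in NSG knockout tumors by 1.07 on the log2 scale (SE 0.20, edgeR adjusted p = 0.00593), and this call held without any 1 of the 8 libraries and with the cell line as a block (adjusted p = 0.031). With the GC and length trend removed together with the block it gave 0.78 (adjusted p = 0.0627), and scaled to the epithelial markers 2.54 (adjusted p = 0.276). In wild type the difference was -0.34 (SE 0.19, adjusted p = 0.203). It was -0.09 without the NSG parental library and -0.57 without NSG vCas9. The knockout difference in NSG was -0.31 without the NSG parental library and -0.79 without NSG vCas9. With all 8 libraries the knockout difference was -0.56 (SE 0.20, adjusted p = 0.292) in NSG and 0.84 (SE 0.20, adjusted p = 0.0579) in Balb/c. The difference between these 2 values, 1.41 (SE 0.28, adjusted p = 0.0839), was the largest interaction of the 47 genes and missed the threshold, which it passed with DESeq2 (adjusted p = 0.00358), with no filter on low counts (0.0265) and without clone 69 in Balb/c (0.0188). Macrophage markers moved with it, at 12000 CPM with clone 54 and 4770 CPM with clone 69 in Balb/c, and their part in the Pcna level was not tested. Copies named Pcna-ps1 and Pcna-ps2 are annotated and were not analysed here, and how reads shared with them were counted is not given in the sources used here.

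The 4 genes of nucleotide synthesis had negative host differences in both genotypes, which all turned positive in knockout when scaled to the epithelial markers. Rrm2, the S-phase subunit of ribonucleotide reductase, and Tyms, which makes thymidylate, passed in both genotypes. For Rrm2 the CPM values were 41.8 and 45.2 in NSG wild type against 17.8 and 19.5 in Balb/c wild type, and 36.2 and 49.4 in NSG knockout against 23.5 and 15.7 in Balb/c knockout. Tyms was at 24.4 and 24.9 CPM in NSG wild type, 17.8 and 32.7 in NSG knockout, 7.39 and 8.18 in Balb/c wild type and 11.3 and 8.61 in Balb/c knockout. Every Balb/c value lay below every NSG value for both genes. Rrm2 differed by -1.22 (SE 0.24, edgeR adjusted p = 0.0104) in wild type and -1.12 (SE 0.24, adjusted p = 0.011, and 0.0502 with the block) in knockout, where it turned to 0.43 when scaled to the epithelial markers. Tyms differed by -1.66 (SE 0.31, adjusted p = 0.00832) in wild type and -1.34 (SE 0.30, adjusted p = 0.0134, and 0.0598 with the block) in knockout, which turned to 0.10 on that scale. Rrm1, the other subunit, differed by -0.80 (adjusted p = 0.0226, and 0.0802 with the block) in wild type and -0.58 (adjusted p = 0.0616) in knockout. In NSG tumors Tk1 was read at 34.3 and 39.9 CPM in wild type and 38.4 and 47.1 CPM in knockout, and in Balb/c tumors at 24.97 and 27.4 CPM and 18.1 and 17.1 CPM. Tk1, the salvage thymidine kinase, was lowest in the Balb/c knockout libraries, with -1.28 (SE 0.18, adjusted p = 0.00214) in knockout and -0.50 (SE 0.18, adjusted p = 0.0629) in wild type. The interaction of Tk1 was -0.78 (SE 0.25, adjusted p = 0.142). Brca1, a repair gene expressed in S phase, passed in neither genotype, with -0.60 (adjusted p = 0.104) and -0.49 (adjusted p = 0.182).

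Regulators of S-phase entry differed among themselves. E2f8, a repressor of E2F targets late in S phase, and Mybl2, which encodes B-Myb, were called lower in both genotypes and with the block. E2f8 was at 34.7 and 31.4 CPM in NSG wild type, 14.7 and 34.4 in NSG knockout, 8.83 and 8.94 in Balb/c wild type and 5.77 and 4.08 in Balb/c knockout. The wild-type libraries held Mybl2 at 9.56 and 11.4 CPM in NSG and 3.91 and 3.40 CPM in Balb/c, and the knockout libraries at 8.99 and 12.9 CPM and 3.28 and 2.99 CPM. E2f8 differed by -1.89 (SE 0.38, edgeR adjusted p = 0.0109) and -2.31 (SE 0.39, adjusted p = 0.00426), and Mybl2 by -1.52 (SE 0.29, adjusted p = 0.00903) and -1.80 (SE 0.29, adjusted p = 0.0035), in wild type and knockout. Both stayed negative in knockout when scaled to the epithelial markers, at -0.88 and -0.42, with no call. In NSG tumors E2f1 was read at 18.97 and 16.6 CPM in wild type and 15.7 and 14.7 CPM in knockout, and in Balb/c tumors at 5.44 and 8.52 CPM and 14.8 and 10.1 CPM. E2f1, the activating E2F, was lowest in the Balb/c wild-type libraries, with a host difference of -1.35 (SE 0.29, adjusted p = 0.0138) in wild type and -0.28 (SE 0.28, adjusted p = 0.482) in knockout. Ccne1 was at 5.68 and 4.47 CPM in NSG wild type, 2.57 and 5.07 in NSG knockout, 2.21 and 3.05 in Balb/c wild type and 5.92 and 4.30 in Balb/c knockout. In NSG tumors Ccne2 was read at 13.6 and 11.7 CPM in wild type and 8.99 and 14.1 CPM in knockout, and in Balb/c tumors at 9.85 and 9.84 CPM and 8.68 and 8.97 CPM. Cyclins E1 and E2 activate Cdk2 at S-phase entry. Ccne1 overlapped between hosts in knockout and gave -0.94 (SE 0.41, adjusted p = 0.112) in wild type and 0.42 (SE 0.41, adjusted p = 0.466) in knockout. Ccne2 gave -0.36 (SE 0.26, adjusted p = 0.309) and -0.39 (SE 0.26, adjusted p = 0.294).

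**Figure D3:**
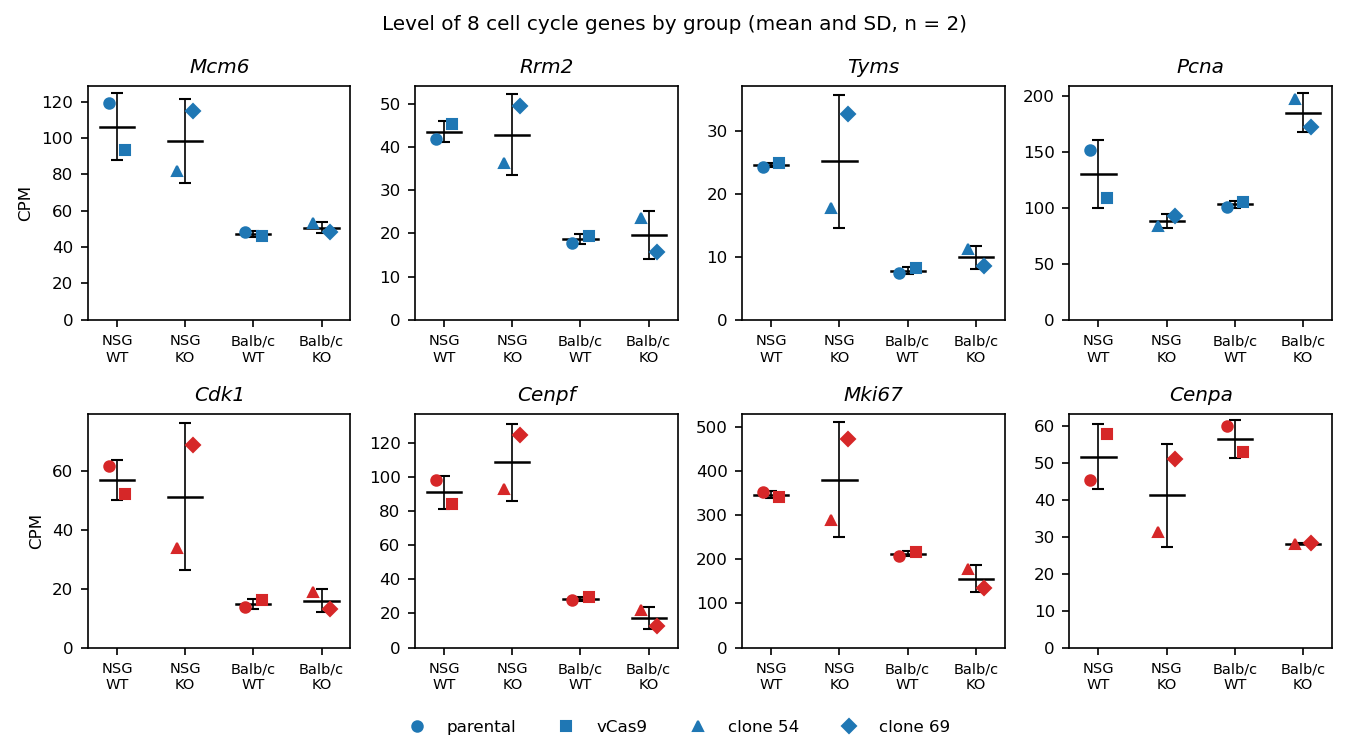
CPM of 8 cell cycle genes in the 4 groups of tumors (WT, wild type; KO, knockout): symbols are single libraries by cell line, bars the mean and error bars the SD of n = 2, with S-phase genes in blue and mitotic genes in red. Pcna peaks in Balb/c knockout, at 198 and 172 CPM, Cenpa is not lower in Balb/c wild type, and the other 6 genes are lower in Balb/c in both genotypes on the TMM scale, of which Mcm6, Rrm2, Tyms and Mki67 turned positive in knockout when scaled to epithelial markers.

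Among the regulators of G2 and mitosis, Foxm1, Ccna2, Ccnb1, Ccnb2, Cdk1 and Cdc25c were all called lower in Balb/c in both genotypes, although Ccnb1 and Ccnb2 turned to 0.26 and 0.06 in knockout when scaled to the epithelial markers. Cdk1 (ENSMUSG00000019942, chromosome 10, 69335146 to 69352938 in GRCm38), the kinase that drives entry into mitosis, had the largest difference in wild type. Cdk1 was at 61.8 and 52.1 CPM in NSG wild type, 33.7 and 69.02 in NSG knockout, 13.7 and 16.01 in Balb/c wild type and 18.7 and 13.2 in Balb/c knockout. It differed by -1.94 (SE 0.34, edgeR adjusted p = 0.00732) in wild type and -1.68 (SE 0.34, adjusted p = 0.00869) in knockout, and it was called with the block in both. For Foxm1 the CPM values were 28.1 and 28.9 in NSG wild type against 12.3 and 10.9 in Balb/c wild type, and 21.8 and 32.5 in NSG knockout against 9.998 and 6.71 in Balb/c knockout. In NSG tumors Ccna2 was read at 58.9 and 48.7 CPM in wild type and 50.2 and 74.5 CPM in knockout, and in Balb/c tumors at 19.8 and 18.5 CPM and 23.6 and 13.1 CPM. Ccnb1 was at 37.5 and 29.9 CPM in NSG wild type, 21.6 and 34.7 in NSG knockout, 10.9 and 9.43 in Balb/c wild type and 14.5 and 7.22 in Balb/c knockout. The clone 69 library was the lowest of the Balb/c libraries for these 3 genes, which encode the mitotic transcription factor FoxM1 and cyclins A2 and B1. Foxm1 gave -1.30 (SE 0.27, adjusted p = 0.0119, and 0.0553 with the block) in wild type and -1.70 (SE 0.27, adjusted p = 0.00347) in knockout. Ccna2 gave -1.49 (SE 0.31, adjusted p = 0.0115, and 0.0514 with the block) and -1.76 (SE 0.31, adjusted p = 0.00473). Ccnb1 gave -1.73 (SE 0.36, adjusted p = 0.0125, and 0.0525 with the block) and -1.37 (SE 0.36, adjusted p = 0.024, and 0.0764 with the block). Ccnb2, which encodes cyclin B2, lost the call with the block in both, at adjusted p of 0.0809 and 0.0508. Cdc25c, the phosphatase that activates Cdk1, differed by -1.76 (SE 0.30, adjusted p = 0.00661) in wild type and -2.61 (SE 0.31, adjusted p = 0.00108) in knockout, at 27 to 31 counts in 3 of the Balb/c libraries.

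The kinases of mitosis, the checkpoint genes and the activators of the anaphase-promoting complex were lower as well, although Aurka, Aurkb, Birc5, Bub1, Bub1b and Ube2c turned positive in knockout on the epithelial scale. The wild-type libraries held Plk1 at 13.2 and 15.8 CPM in NSG and 4.76 and 5.13 CPM in Balb/c, and the knockout libraries at 15.1 and 20.7 CPM and 6.19 and 3.21 CPM. Aurka was at 14.96 and 12.3 CPM in NSG wild type, 15.3 and 15.9 in NSG knockout, 5.78 and 8.04 in Balb/c wild type and 8.20 and 6.57 in Balb/c knockout. Plk1 and Aurora A are kinases that mature the centrosomes and build the spindle, and neither overlapped between hosts. Plk1 differed by -1.55 (SE 0.34, edgeR adjusted p = 0.0148, and 0.0578 with the block) in wild type and -1.92 (SE 0.34, adjusted p = 0.00532) in knockout. Aurka differed by -0.98 (SE 0.26, adjusted p = 0.0261, and 0.0838 with the block) and -1.08 (SE 0.26, adjusted p = 0.0166, and 0.0636 with the block), the latter turning to 0.43 when scaled to the epithelial markers. Aurkb, of the chromosomal passenger complex, was called in wild type (-1.42, adjusted p = 0.0346, and 0.0988 with the block) and not in knockout (-0.97, adjusted p = 0.106). In NSG tumors Birc5 was read at 23.3 and 26.01 CPM in wild type and 24.9 and 30.4 CPM in knockout, and in Balb/c tumors at 9.60 and 7.97 CPM and 12.2 and 5.83 CPM. Its partner Birc5, or survivin, differed by -1.49 (SE 0.34, adjusted p = 0.0157, and 0.0558 with the block) and -1.61 (SE 0.33, adjusted p = 0.00976). The checkpoint kinases Bub1 and Bub1b gave -1.61 and -1.54 in wild type and -1.35 and -1.47 in knockout, which turned to 0.28 and 0.13 on the epithelial scale. With the block Bub1 lost the call in both, at adjusted p of 0.0781 and 0.105. Cdc20 was at 29.99 and 27.4 CPM in NSG wild type, 27.1 and 33.8 in NSG knockout, 10.4 and 9.70 in Balb/c wild type and 10.5 and 6.93 in Balb/c knockout. For Ube2c the CPM values were 31.8 and 23.7 in NSG wild type against 8.83 and 10.1 in Balb/c wild type, and 17.98 and 28.1 in NSG knockout against 11.5 and 5.98 in Balb/c knockout. Cdc20 activates the anaphase-promoting complex and Ube2c is its ubiquitin carrier. Cdc20 had the smallest adjusted p of the members in wild type, with -1.52 (SE 0.24, adjusted p = 0.0056), and gave -1.80 (SE 0.25, adjusted p = 0.00191) in knockout. Ube2c gave -1.55 (SE 0.36, adjusted p = 0.0169, and 0.0668 with the block) and -1.39 (SE 0.36, adjusted p = 0.0219, and 0.0777 with the block), the latter turning to 0.23 on the epithelial scale.

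Kinetochore genes did not move alike. Cenpe and Cenpf, which bind the outer kinetochore in mitosis, were among the genes with the largest difference in knockout. Cenpf was at 97.9 and 84.1 CPM in NSG wild type, 92.7 and 124 in NSG knockout, 27.9 and 29.4 in Balb/c wild type and 21.9 and 12.8 in Balb/c knockout. Clone 69 in Balb/c was the lowest library and clone 69 in NSG the highest. Cenpf (ENSMUSG00000026605, chromosome 1, 189640606 to 189688086 in GRCm38) differed by -1.67 (SE 0.27, edgeR adjusted p = 0.00579) in wild type and -2.64 (SE 0.28, adjusted p = 0.000766) in knockout, the largest of the 47 in knockout. Cenpe differed by -1.58 (SE 0.31, adjusted p = 0.0104) and -2.48 (SE 0.32, adjusted p = 0.00159). Cenpa encodes the histone H3 variant that marks centromeres. In NSG tumors Cenpa was read at 45.6 and 58.1 CPM in wild type and 31.5 and 51.2 CPM in knockout, and in Balb/c tumors at 60.2 and 52.95 CPM and 28.1 and 28.3 CPM. The 2 Balb/c wild-type libraries overlapped those of NSG wild type, and the 2 Balb/c knockout libraries were the lowest of all 8. Cenpa was the 1 member with a positive host difference in wild type, 0.13 (SE 0.24, adjusted p = 0.709), a sign that turned to -0.03 with total-count scaling and to -0.10 with scaling to epithelial markers. In knockout it gave -0.55 (SE 0.25, adjusted p = 0.125).

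Genes of the spindle, of chromosome structure and of cytokinesis followed the mitotic list in wild type and, apart from the epithelial scale, in knockout. The wild-type libraries held Kif11 at 56.6 and 47.9 CPM in NSG and 25.1 and 25.2 CPM in Balb/c, and the knockout libraries at 35.1 and 62.1 CPM and 29.8 and 15.9 CPM. Tpx2 was at 58.9 and 49.9 CPM in NSG wild type, 41.4 and 58.9 in NSG knockout, 18.3 and 19.3 in Balb/c wild type and 23.6 and 11.2 in Balb/c knockout. In NSG tumors Hmmr was read at 34.8 and 30.4 CPM in wild type and 33.9 and 52.1 CPM in knockout, and in Balb/c tumors at 12.9 and 12.9 CPM and 15.5 and 7.51 CPM. Kif11 is the motor that pushes the spindle poles apart, and Tpx2 and Hmmr assemble spindle microtubules. Kif11 was at the edge of the threshold, with -1.05 (SE 0.34, edgeR adjusted p = 0.0496, and 0.128 with the block) in wild type and -1.09 (SE 0.34, adjusted p = 0.0457, and 0.133 with the block) in knockout. Tpx2 gave -1.54 (SE 0.34, adjusted p = 0.0144, and 0.0573 with the block) and -1.52 (SE 0.34, adjusted p = 0.0125), and Hmmr -1.34 (SE 0.35, adjusted p = 0.0241, and 0.0797 with the block) and -1.89 (SE 0.35, adjusted p = 0.00594). Kif20a, Kif23 and Prc1, which act in the central spindle, were called lower in both genotypes with log2 fold changes of -1.47, -0.96 and -1.22 in wild type and -1.60, -1.49 and -1.58 in knockout, and Prc1 lost the call in wild type with the block (adjusted p = 0.0509). Mki67 was at 351 and 341 CPM in NSG wild type, 288 and 472 in NSG knockout, 208 and 216 in Balb/c wild type and 177 and 134 in Balb/c knockout. For Top2a the CPM values were 317 and 276 in NSG wild type against 136 and 116 in Balb/c wild type, and 175 and 321 in NSG knockout against 129 and 72.7 in Balb/c knockout. These 2 genes encode Ki-67, the clinical marker of proliferation, and topoisomerase II alpha, which untangles chromosomes. Mki67 was called in knockout (-1.29, SE 0.26, adjusted p = 0.00881) and not in wild type (-0.71, SE 0.26, adjusted p = 0.0692), where its libraries did not overlap. Top2a was called in both, with -1.24 (SE 0.35, adjusted p = 0.0316, and 0.0939 with the block) and -1.30 (SE 0.35, adjusted p = 0.0257, and 0.0929 with the block). In knockout Mki67, Top2a, Tpx2 and Kif11 turned to between 0.15 and 0.51 when scaled to the epithelial markers.

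**Figure D4:**
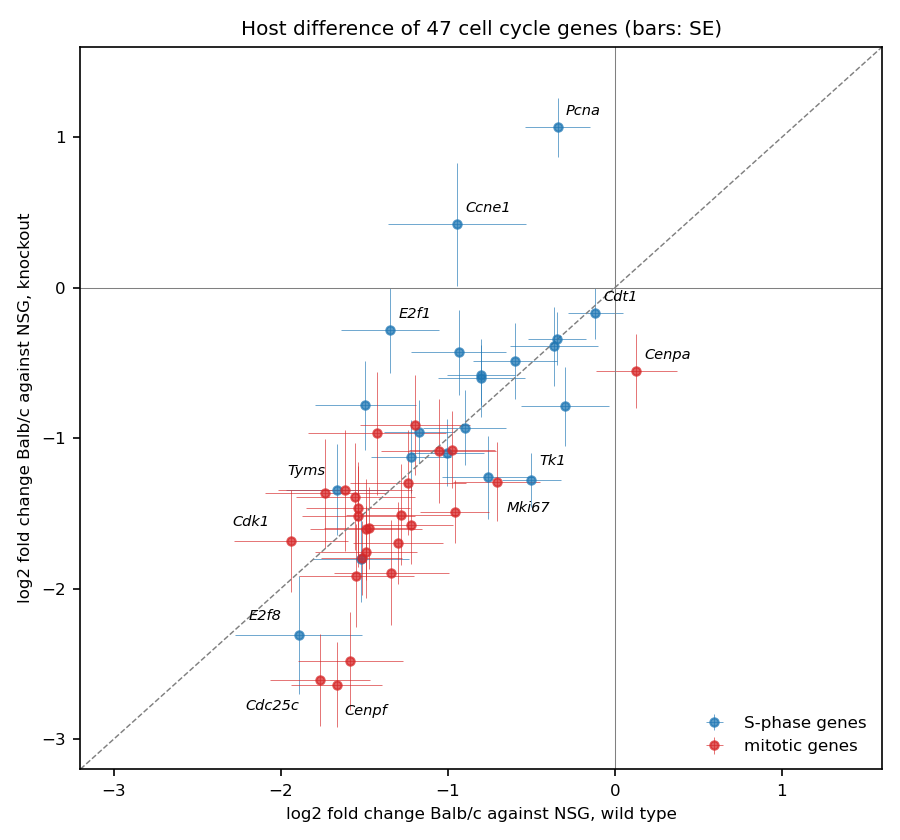
Log2 fold change of Balb/c against NSG for the 47 genes in wild-type (horizontal) and knockout tumors (vertical), with SE bars, S-phase genes in blue, mitotic genes in red and the dashed line marking equal values. Pcna lies at -0.34 and 1.07, Cenpa at 0.13 and -0.55, and most other genes lie below 0 on both axes on the TMM scale, whereas scaling to epithelial markers moved the knockout median to 0.27.

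Across both host comparisons, 29 members were called lower in both genotypes, 7 of them S-phase and 22 mitotic genes, where 7.79% of all tested genes were lower in both. A further 7 were called in wild type only (Mcm2, Mcm3, Gins2, Rrm1, E2f1, Aurkb and Nusap1), 3 in knockout only (Cdc45, Tk1 and Mki67) and 8 in neither. With the cell line as a block 15 of the 47 were called lower in wild type, and on the epithelial scale 0. Fewer than 29 were therefore called in both genotypes there. No gene of the 47, and 0% of all tested genes, passed the interaction test, so these lists do not show that the genotypes differ. At an unadjusted p under 0.05, 5 of the 47 had an interaction, where 22.5% of all genes did. These were Pcna, Tk1, E2f1 (1.06), Cenpf (-0.97) and Ccne1 (1.36). DESeq2 called 1 of the 47 and 974 genes in all, or 6.36%.

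The second comparison asked whether loss of CD95 in the tumor cells changes these genes within a host. In NSG tumors none of the 47 passed, where 0.0131% of all genes, 2 in number, did. At an unadjusted p under 0.05 only Pcna differed, against 14% of all genes. DESeq2 called none of the 47, where it called 2.22% of all genes. The median log2 fold change was -0.08, which became -1.55 with all 47 negative when scaled to the epithelial markers, as the median over all genes became -1.50. In Balb/c tumors none passed either, where 0.176% of all genes, 27 in number, did. At an unadjusted p under 0.05, 7 of the 47 differed in Balb/c, where 30.9% of all genes did, and the median was -0.11, which turned to 0.35 on the epithelial scale. Of these 7, Pcna, E2f1 (0.84, SE 0.29, edgeR adjusted p = 0.105) and Ccne1 (0.96, SE 0.41, adjusted p = 0.159) were higher in the knockout libraries. Cenpa (-1.003, SE 0.25, adjusted p = 0.0606), Tk1 (-0.57, SE 0.18, adjusted p = 0.086), Cenpf (-0.72, SE 0.27, adjusted p = 0.122) and Cdt1 (-0.39, SE 0.17, adjusted p = 0.16) were lower. DESeq2 called 3 of the 47 in Balb/c, where it called 14% of all genes, namely Pcna, Tk1 and Cenpa, with adjusted p of 0.0183, 0.0443 and 0.00427.

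The 2 knockout clones differed in opposite ways in the 2 hosts. In NSG, clone 54 was below clone 69 for 46 of the 47 genes, where 49.8% of all genes were, with a median difference of -0.52 in log2 CPM. In Balb/c, clone 54 was above clone 69 for 42 of the 47 and below for 5, where it was below for 48.8% of all genes, with a median difference of 0.53. The median of the knockout difference over the 47 genes therefore rested on which clone was read. In NSG it was 0.19 without clone 54 and -0.39 without clone 69, and in Balb/c it was -0.57 without clone 54 and 0.24 without clone 69. Clone 54 in Balb/c had the lowest epithelial marker sum and the highest macrophage marker sum of the 8 libraries, and clone 69 in Balb/c the highest epithelial sum. The 2 wild-type lines differed less, with a median of 0.144 in NSG and 0.002 in Balb/c for parental minus vCas9. With 1 library per clone and host, a clone and a tumor cannot be told apart.

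Other genes of the cycle, from lists that exclude the 47, followed the same order. Of 40 other replication genes, 15 were lower and none higher in Balb/c wild type (1 higher at an unadjusted p under 0.05 and 1 with DESeq2), and 16 were lower and 1, Rpa2, was higher in knockout, where 16.2% and 15.4% of all genes were lower in wild type and knockout. Of 45 other mitotic genes, 36 were lower and none higher in wild type (0 at an unadjusted p under 0.05 and 0 with DESeq2), and 32 were lower and 1, Ncapd2, was higher in knockout. The medians were -0.67 and -1.20 in wild type and -0.67 and -1.31 in knockout. None of these genes was called in either direction when scaled to the epithelial markers, where 1.01% and 2.88% of all genes were. With the cell line as a block, 3 and 10 were lower in wild type, where 5.73% of all genes were, and 7 and 19 in knockout, where 9.56% were. The replication genes in wild type were thus near the share over all genes, and Rpa2 and Ncapd2 lost their calls in knockout, at adjusted p of 0.0765 and 0.12. Among mitotic genes Anln, an actin-binding protein of the cleavage furrow, gave -1.78 (SE 0.21, edgeR adjusted p = 0.00202) in wild type and -2.28 (SE 0.21, adjusted p = 0.000512) in knockout. Among replication genes Uhrf1, which maintains DNA methylation behind the fork, gave -1.40 (SE 0.28, adjusted p = 0.0102) in wild type, and Pole, the catalytic subunit of DNA polymerase epsilon, gave -1.88 (SE 0.26, adjusted p = 0.00184) in knockout.

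Of the drivers of G1, 9 of 10 were tested and they did not share a direction. Ccnd1 was at 236 and 188 CPM in NSG wild type, 170.5 and 215 in NSG knockout, 54.5 and 66.9 in Balb/c wild type and 40.1 and 47.3 in Balb/c knockout. Ccnd1 encodes cyclin D1, the partner of Cdk4 and Cdk6, and differed by -1.80 (SE 0.21, edgeR adjusted p = 0.00202) in wild type and -2.14 (SE 0.21, adjusted p = 0.000624) in knockout, with all Balb/c libraries far below all NSG libraries. Cdk4 was also lower in wild type (-1.26, SE 0.18, adjusted p = 0.00404), while Ccnd3 (1.06), Cdk6 (1.16) and E2f2 (1.23) were higher. In knockout Myc was lower (-0.90, adjusted p = 0.0265, and 0.0622 with the block), which turned to 0.65 on the epithelial scale, and Cdk6 was higher (0.99, adjusted p = 0.0357, and 0.0503 with the block). Of 21 inhibitors and genes of quiescence, 7 were higher and 1 lower in wild type, and 8 were higher and 1 lower in knockout, where 15.3% and 15.7% of all genes were higher and 16.2% and 15.4% lower. Under the block 4 and 3 were higher, against 7.81% and 9.24% of all genes. On the epithelial scale 0 and 1 were higher, where only 1.01% and 2.88% of all genes were called in either direction. In NSG tumors Rbl2 was read at 29.1 and 31.6 CPM in wild type and 43.9 and 41.97 CPM in knockout, and in Balb/c tumors at 84.8 and 94.04 CPM and 99.1 and 92.8 CPM. Rbl2 encodes p130, the pocket protein of the DREAM complex, and had the largest rise of this list in wild type, 1.56 (SE 0.15, adjusted p = 0.00103). Cdkn2d, which inhibits Cdk4 and Cdk6, and the antiproliferative gene Btg2 followed with 1.46 (adjusted p = 0.00718) and 1.39 (adjusted p = 0.00858). In knockout Btg1 gave 1.33 (adjusted p = 0.0157, and 0.0694 with the block) and Mdm2, the p53 antagonist, 1.21 (adjusted p = 0.00808). Cdkn2c was the gene that was lower in both, with -1.21 (adjusted p = 0.0282, and 0.0864 with the block) and -1.75 (adjusted p = 0.00691). Cdkn2a was called higher in knockout, but it held 0 and 2 counts in the NSG libraries and 28 and 12 in the Balb/c libraries, and its fitted fold change depends on these few counts.

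**Figure D5:**
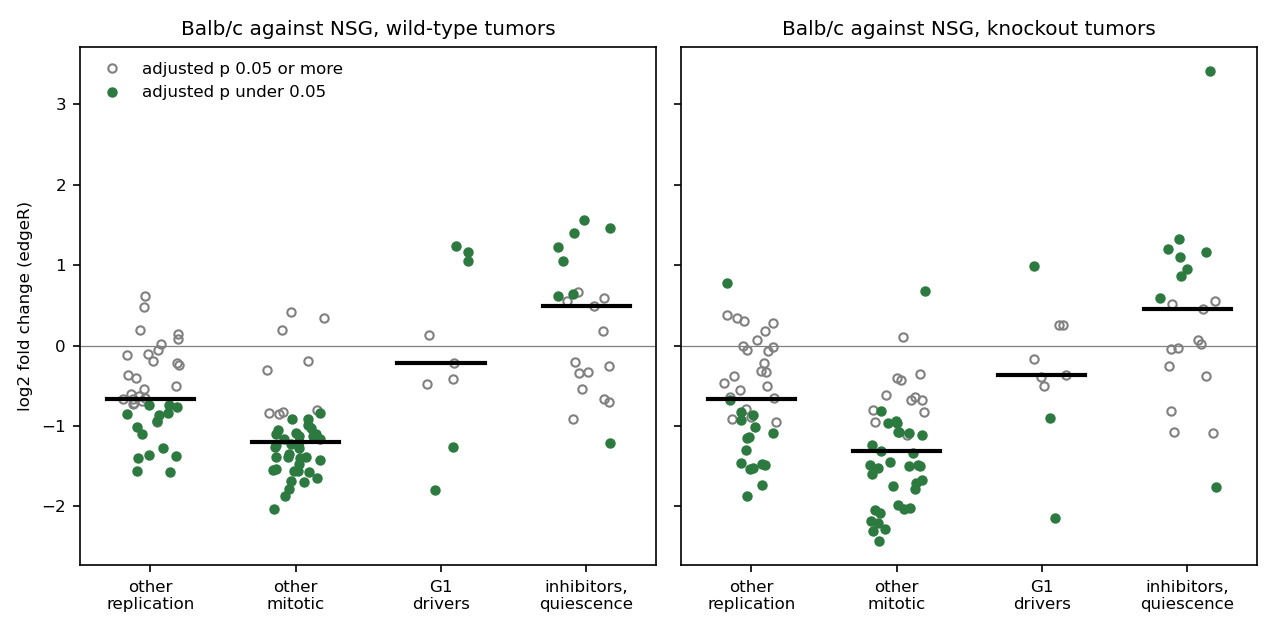
Log2 fold change of Balb/c against NSG for the tested genes of 4 further lists in wild-type (left) and knockout tumors (right), with filled points past an edgeR adjusted p of 0.05 and black bars at the list medians. Most other mitotic genes lie below 0 on the TMM scale and none of them passed when scaled to epithelial markers; the highest point on the right is Cdkn2a, which rests on 0 and 2 counts in the NSG knockout libraries.

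Some of these counts may hold reads of neighbours, since the strand setting of the counting is not given in the sources used here. In GENCODE M21, 13 of the 47 genes share exon bases with another protein-coding gene, mostly on the opposite strand, among them Mcm7, Cdc45, Gins2, Tk1, Ccna2, Cdc20, Kif20a and Ube2c. Gins2 shares 2758 bases with Gse1, Kif20a shares 1271 with Cdc23, and the others share 911 or fewer. Their values are uncertain to that extent. Pcna, Cdk1, Cenpf, Cenpa, Mcm6, Rrm2, Tyms and Mki67 share no exon bases with an annotated gene. Pseudogene copies are also annotated for Tyms and Ccnb2, which were not analysed here, and for Ccnb1, whose copy held 0 to 3 counts per library.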

How the data were processed

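The deposited files held raw counts per Ensembl gene, 1 library per file. The submitters' processing notes name cutadapt 1.13, STAR, HTSeq 0.6.1p1 and DESeq2 and the builds mm10 and hg19, with no role or order. The strand setting and annotation are not given in the sources used here. The 47 members and the other gene lists were chosen with earlier results of these data known.

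Counts of all 8 libraries were fitted in R 4.3.3 with edgeR 4.0.16 (TMM, filterByExpr, quasi-likelihood test) with 4 group means, 15310 genes, a common biological coefficient of variation of 0.244 and 4 residual degrees of freedom. P-values carry the Benjamini-Hochberg adjustment over all genes, 0.05 was the threshold, and the procedure was tested on simulated data. CPM used TMM totals, and scores used a prior count of 2. Alternatives were other scalings, among them the geometric mean of 12 epithelial markers, no filter, DESeq2 1.42.0, only the groups compared, each library left out (a lone library is then assumed to vary like the others), a GC and length trend removed, and the cell line as a block. The same line in both hosts pairs libraries. The difference between the 2 libraries of a group was correlated between NSG and Balb/c across all 15310 tested genes. It gave r of 0.09 for wild-type lines and -0.35 for clones. Members described library by library were set by a list of names, with those whose sign went against most. From the other lists, the 3 largest called changes in each direction could be named. Gene positions came from GENCODE M21 (GRCm38), whose gene and transcript tables may differ from the annotation behind the counts. CPM values at few counts carry counting error, with 3 counts worth 0.159 to 0.321 CPM.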

Additional observations from a re-analysis of the deposited data

How the results depend on the processing

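Of 139 named gene differences, recomputed under every alternative that could be fitted, 1837 values kept direction and call, 423 lost the call, 36 gained it and 41 changed sign. The cause of each change was not tested, except that fits without a library rest on fewer libraries.

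Scaled to the epithelial markers, the called genes numbered 154 (wild-type host comparison), 441 (knockout host comparison), 1 (knockout effect in NSG), 6 (knockout effect in Balb/c) and 1 (interaction), with 0 members called in both host comparisons. The median over the 47 became -1.60, 0.27, -1.55, 0.35 and 1.80 in that order, and the S-phase median minus the mitotic median became -0.14 in Balb/c for the knockout effect and 0.018 for the interaction. In the knockout host comparison, with an SE of up to 1.21 per member, this scaling reversed Mcm2 (0.87), Mcm3 (1.07), Mcm4 (1.06), Mcm5 (0.56), Mcm6 (0.45), Mcm7 (0.35), Cdc6 (0.65), Cdt1 (1.28), Cdc45 (0.28), Gins2 (0.81), Rrm1 (0.92), Rrm2 (0.43), Tyms (0.10), Tk1 (0.13), Brca1 (0.83), E2f1 (1.32), Ccne2 (0.94), Ccnb1 (0.26), Ccnb2 (0.064), Aurka (0.43), Aurkb (0.70), Birc5 (0.078), Bub1 (0.28), Bub1b (0.13), Ube2c (0.23), Cenpa (0.79), Kif11 (0.51), Tpx2 (0.15), Nusap1 (0.70), Mki67 (0.18), Top2a (0.27) and Myc (0.65). It also reversed Cenpa in wild type (-0.10) and the interactions of Tk1 (0.95) and Cenpf (0.999). Cenpa in wild type further turned to -0.031 with total counts and ranged from -0.045 to 0.299 with 1 library left out, lowest without the NSG parental library. Cdt1 in wild type turned to 0.11 with the GC and length trend removed and 0.11 with the block as well, and with 1 library left out Mcm3 in knockout ranged from -0.766 to 0.008 and the knockout effect of Fas in NSG from -1.132 to 0.06, both highest without NSG clone 69.

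Fitted with a replicate block by cell line, the host comparisons called 2073 genes and 15 members in wild type and 2878 genes in knockout. With the trend removed too they called 1990 genes and 13 members, and 2773 genes and 21 members. The block changed no interaction call. A crossed pairing of the clones, added after seeing the data, called 5436 genes and 37 members in the knockout host comparison and 307 genes in the interaction. Fits of only the groups compared called 2450 genes and 18 members in the knockout host comparison, 1 gene for the knockout effect in NSG and 0 in Balb/c. With no filter on low counts the knockout effect called 133 genes in NSG, 1774 genes and 2 members in Balb/c, and the interaction 674 genes and 1 member. DESeq2 called 340, 2144 and 974 genes there, with 3 members in Balb/c and 1 in the interaction. For the knockout effect, RLE factors called 94 genes in Balb/c, and removing the trend 4 in NSG and 0 in Balb/c. The S-phase minus mitotic median in the knockout host comparison was 0.88 with the trend removed and 0.57 with the narrow S-phase list.

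Leaving out each library in turn gave 858 to 6361 called genes and 1 to 39 members in the wild-type host comparison. In the knockout host comparison it gave 2461 to 4640 genes, 17 to 37 members, a median of -1.62 to -0.95 and an S-phase minus mitotic difference of 0.60 to 1.06. For the knockout effect in NSG it gave 0 to 1 genes and a median of -0.39 to 0.19. In Balb/c it gave 0 to 3886 genes, 0 to 2 members, a median of -0.57 to 0.24 and a difference of -0.16 to 0.41. The interaction gave 0 to 2370 genes, 0 to 1 members, a median of -0.50 to 0.30 and a difference of 0.083 to 0.567. Every member had 24 counts or more in each library, so counting error was small for most, and the groups held 2 libraries, each of another line.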
